A study of Mus musculus with 22 samples.

Results

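Aortic smooth muscle cells grown in a dish were set against the aorta of the same mouse genotype. The comparison holds 5 of the 22 Affymetrix arrays of the series, chosen by their labels and not by any measured value. Of these, 3 are unstimulated cultures of suprarenal aortic smooth muscle cells from mice lacking tenascin C (TNC-KO), and 2 are pools of untreated TNC-KO aorta, 1 of the suprarenal and 1 of the infrarenal segment. All mice were C57BL/6 males. The cells were freed from the vessel by enzymes and grown in DMEM with 10% fetal bovine serum, without added TNC or TNF-alpha, and the design text calls the cultures independent. Their group was taken from the treatment label, which matches the titles. The source label of every cell sample, these 3 included, speaks of TNF-alpha stimulation, for a time that is 1 h longer in each successive sample; that label was not used. Each pool holds RNA of 5 mice; the text counts 5 untreated mice a genotype, so both segments may come from the same animals, and the spread between the 2 pools is the spread between segments. The knockout is shared by both groups. The other 17 arrays, used for side values, are 11 arrays of the same cells given TNC at 10 µg/mL, TNF-alpha at 10 ng/mL or both, 2 pools of untreated wild type (WT) aorta, and 4 pools of WT or TNC-KO aorta after periaortic CaCl2 at 0.5 M and angiotensin II at 1 µg/min/kg for 1 week.

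Smooth muscle of the vessel wall is built to contract: it carries the smooth muscle myosin heavy chain, actin and the proteins that couple calcium to them, under the control of serum response factor and its partner myocardin. When such cells are dispersed and given serum they are known to lose part of this equipment, to divide, and to make matrix and secreted signals. A piece of aorta also holds endothelium, adventitial fibroblasts, perivascular fat, nerves and leukocytes, so a gene can be lower in a culture because a cell type stayed behind. In bulk RNA, fewer cells of a type and less RNA per cell cannot be told apart. Which array was processed with which is not given in the sources used here, so the day of culture, extraction or hybridisation cannot be told apart from the group.

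Values are the deposited signal of the brightest probe set of each gene, and changes are the log2 signal in cells minus that in aorta, each with its standard error (SE). A call is an adjusted p below 0.05 from limma with Benjamini-Hochberg adjustment over 15074 genes. The arrays were scaled to a common mean: the mean over the middle 96% of probe sets was 500.0 on each array. The median signal was nevertheless 64.6, 63.5 and 61.6 in cells, against 124.8 and 134.5 in aorta. Scaling therefore decides small changes. The median change over all genes was -0.10 as deposited, 0.19 after quantile normalization and 0.93 with each array centred on its own median. As deposited, 3395 genes were called higher in cells (22.5% of those tested) and 3829 lower (25.4%); quantile normalization gave 4258 higher and 2777 lower, and median centring gave 8922 higher and 1616 lower. With the same direction called under all 3 scalings, 3010 genes were higher (20.0%) and 1507 lower (10.0%). "Rose" and "fell" are used below only of genes called under all 3. The shares of 20.0% and 10.0% are the background for list counts under all 3 scalings, and 22.5% and 25.4% for counts as deposited. Correlation across genes was 0.970 to 0.971 between cell arrays, 0.930 between the pools and 0.742 to 0.800 between a cell array and a pool.

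Tnc itself read 122, 144 and 100 in cells, against 257 and 336 in KO aorta and 1805 and 2453 in untreated WT aorta. Both KO groups lay far below the WT pools. The change of -1.28 between cells and KO aorta was not called under all 3 scalings.

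Within the contractile list the changes ran between near 0 and a loss of most of the signal. Of 21 tested members 18 were called lower as deposited and none higher, with a median change of -1.22; 9 were called lower under all 3 scalings, and with median centring the list median was -0.18. Myh11, the smooth muscle myosin heavy chain, read 366, 266 and 407 in cells, against 14216 and 18978 in aorta. Its change was -5.59 (SE 0.22, adjusted p = 5.95e-05), and its 2 probe sets gave -5.59 and -4.56. Synpo2, an actin-bundling protein of the dense bodies, read 232, 214 and 225 in cells, against 3542 and 5782 in aorta, a fall of 4.34 (-4.34, SE 0.21). Cnn1, calponin, read 1572, 1022 and 1292 in cells and 7757 and 11114 in aorta, a change of -2.86 (SE 0.23, adjusted p = 0.000337). Des, the intermediate filament desmin, fell by 2.72 (SE 0.43). In each of these genes every cell array lay below both pools.

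Smooth muscle actin and SM22 had small changes whose direction depends on scaling. Acta2 read 23241, 22235 and 23322 in cells, against 26276 and 32462 in aorta. The change of -0.35 was called lower as deposited (adjusted p = 0.0453) and was higher, by 0.69, with median centring. Tagln, SM22, read 14105, 14268 and 14240 in cells and 16984 and 23371 in aorta, a change of -0.49 that turned to 0.55 with median centring. These signals sit near the top of the scale, where the brightest probe set of any of the 5 arrays read between 26914 and 39169, and how far the signal of such genes was compressed was not tested. Of the 3 probe sets of Acta2, the dimmer ones gave changes down to -4.57, so the probe sets of this gene disagree. Smtn, smoothelin, read 1505, 1573 and 1355 in cells and 3229 and 4595 in aorta; its change was -1.38 as deposited and -0.35, not called, with median centring.

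**Figure D1:**
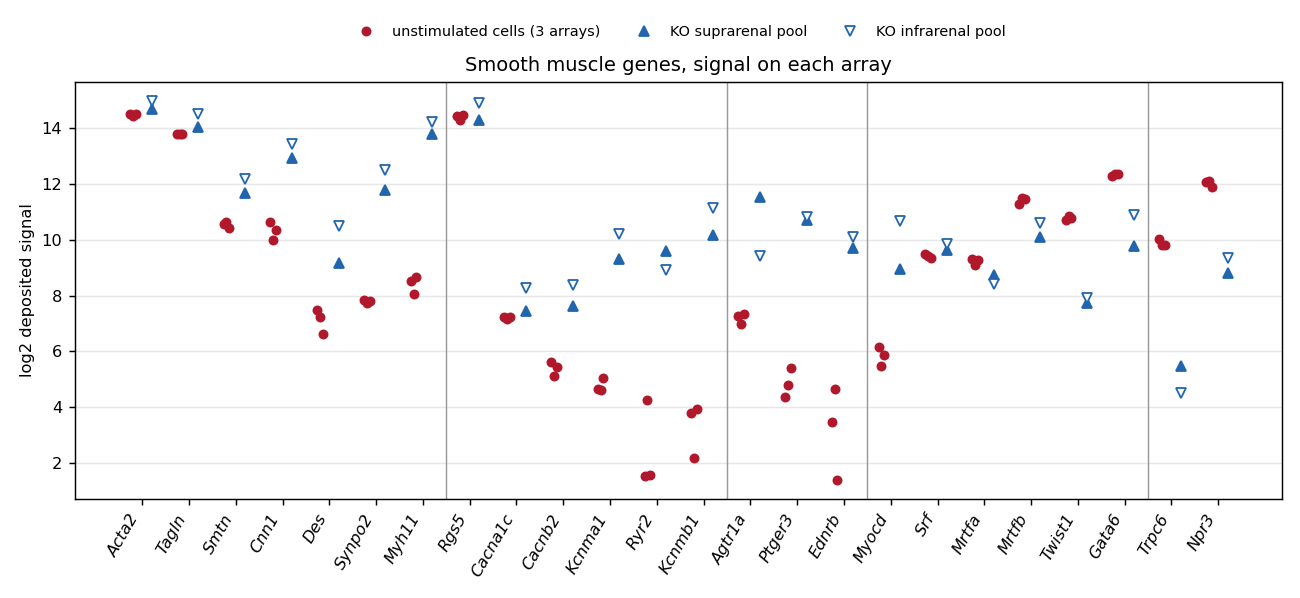
Log2 deposited signal of 24 smooth muscle genes on each array: 3 unstimulated cell arrays (circles, left of each pair) and the KO suprarenal and infrarenal pools (triangles, right). Vertical lines separate contractile proteins, excitation and relaxation, receptors, regulators, and a last block of Trpc6 and Npr3. Both of these rose, as did some of the regulators. Myh11 fell by 5.59, while Acta2 changed by -0.35 as deposited and 0.69 with median centring.

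Much of the machinery that sets membrane potential and calcium release was lower in cells. Of 19 tested members of the excitation, calcium and relaxation list, 11 fell and 1 rose; as deposited the counts were also 11 and 1. Kcnmb1, the smooth muscle beta subunit of the BK potassium channel, read 13.9, 4.52 and 15.3 in cells, against 1152 and 2239 in aorta. Kcnma1, the pore of that channel, read 25.1, 24.4 and 33.1 in cells, against 637 and 1182 in aorta (change -4.99, SE 0.34). Ryr2, a calcium release channel, read 2.91, 19.1 and 3.01 in cells and 770 and 478 in aorta. The cell values of Kcnmb1 and Ryr2 lie under the 30th percentile of their arrays, where log2 differences swell. Their changes were -7.34 and -6.79 on the log2 scale and -5.25 and -4.01 on the log2(value + 32) scale. Cacnb2, a calcium channel subunit, fell by 2.60 (SE 0.34), and Cacna1c, the pore of the L-type channel, read 149, 145 and 150 in cells and 176 and 305 in aorta, which was not called (-0.65, adjusted p = 0.0886).

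Not all of this equipment was lower. Rgs5, a brake on G-protein signalling that marks mural cells, read 22197, 19979 and 22594 in cells, against 20197 and 30227 in aorta, and its groups overlapped. Atp2a2, the calcium pump SERCA2, and Pde5a, which degrades cyclic GMP, were also not called, with changes of -0.16 and 0.43. Trpc6, a receptor-operated cation channel, read 1053, 908 and 892 in cells, against 44.8 and 22.6 in aorta, and was the 1 member that rose (4.90, SE 0.30, adjusted p = 0.000158).

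Receptors of vasoactive hormones went in both directions. Of 11 tested, 4 fell and 1 rose. Ednrb, an endothelin receptor, read 11.1, 25.4 and 2.63 in cells and 838 and 1107 in aorta. Ptger3, a prostaglandin E2 receptor, read 20.7, 27.7 and 42.5 in cells, against 1683 and 1780 in aorta (-5.90, SE 0.33). Both lay below the median signal on each cell array. Agtr1a, the main angiotensin II receptor of rodents, read 152, 128 and 160 in cells, against 2944 in the suprarenal and 681 in the infrarenal pool. Its sister gene Agtr1b ran the other way between segments, with 26.5, 36.2 and 24.1 in cells and 132 suprarenal against 738 infrarenal. Npr3, the clearance receptor of natriuretic peptides, rose: 4303, 4429 and 3800 in cells, against 447 and 647 in aorta (2.95, SE 0.17, adjusted p = 0.000137).

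Among the regulators of the smooth muscle phenotype, 10 of 20 tested rose and 4 fell. Myocd, myocardin, the co-activator that switches on the contractile set, read 71.7, 45.1 and 59.1 in cells, against 494 and 1635 in aorta, a fall of 3.96 (-3.96, SE 0.51, adjusted p = 0.00175). Its partner Srf read 710, 687 and 654 in cells and 786 and 932 in aorta and was not called. Mrtfa and Mrtfb, the actin-regulated co-activators that share Srf with myocardin, were higher in cells. Mrtfa rose by 0.66 (SE 0.14) and Mrtfb by 1.06 (SE 0.17), although the 3 probe sets of Mrtfb ranged from -0.33 to 1.06. Twist1, a mesenchymal transcription factor, read 1676, 1826 and 1747 in cells and 212 and 242 in aorta (2.95, SE 0.11). Gata6, a factor of vascular smooth muscle, rose by 2.00 (SE 0.30). Klf4, which represses contractile genes in cultured smooth muscle, read 1664, 1738 and 1720 in cells, against 1797 and 3956 in aorta, and was not called. Its relative Klf5 fell by 3.25 (SE 0.30).

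**Figure D2:**
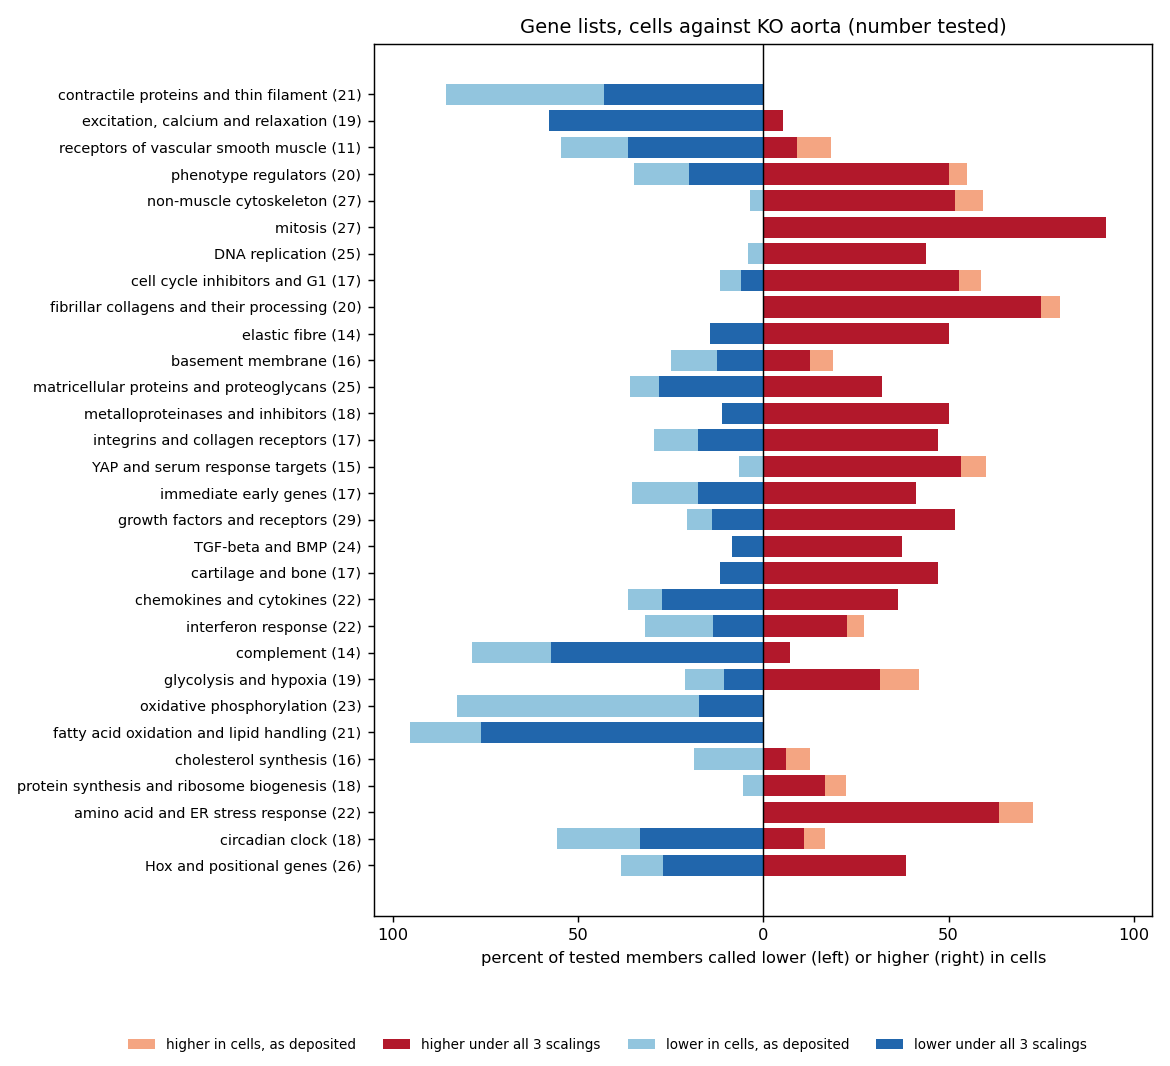
Percent of tested members of 30 gene lists called lower (left of 0) or higher (right of 0) in cells against KO aorta; the number tested follows each name. Dark bars count members called under all 3 scalings, pale bars the additional members called as deposited: mitosis has 25 of 27 dark on the right, oxidative phosphorylation 4 dark of 19 called on the left.

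The largest rise on the log2(value + 32) scale was that of Cxcl15, a chemokine, which read 7840, 7572 and 7572 in cells, against 41.2 and 76.6 in aorta (7.09, SE 0.25). Grem1, gremlin, an antagonist of bone morphogenetic proteins (BMPs), read 8873, 8284 and 9722 in cells and 128 and 93.1 in aorta (6.36, SE 0.16, adjusted p = 2.89e-05). Frzb and Rspo2, an inhibitor and an enhancer of Wnt signalling, rose by 5.26 and 5.70. Cemip, a hyaluronan-degrading protein, rose by 6.36 on its main probe set, and another of its 3 probe sets gave -0.05. The remaining genes among the 15 largest rises were Gprin3, Rnase1, Cdkn2a, Cxcl2, Ptx3, Sema3e, Thbs1, Akr1c14, Hs6st2 and Col10a1. In all 15 the lowest of the 11 stimulated cell arrays was also above both KO pools.

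Genes of mitosis were higher in cells. Of 27 tested genes of mitosis, 25 rose and none fell, with a median change of 1.96, and of 1.57 on the log2(value + 32) scale. Of the 27, 4 were at or under the 30th percentile on both pools. Those 4 were tested only through the cell arrays, so the filter leaned them toward a rise. Cdk1, the kinase that starts mitosis, read 1084, 720 and 914 in cells, against 103 and 155 in aorta (2.82, SE 0.25, adjusted p = 0.00046). Cdc20, an activator of the anaphase ubiquitin ligase, read 1210, 809 and 949 in cells and 223 and 191 in aorta (2.24, SE 0.19). Ccnb2, cyclin B2, read 521, 297 and 416 in cells and 127 and 90.2 in aorta (1.91, SE 0.29). The second cell array was the lowest of the 3 in these genes, and still above both pools. Ccna2, cyclin A2, and Mki67, the proliferation antigen, rose by 1.88 and 1.27. Top2a, a topoisomerase, rose by 1.90 on its brightest probe set, but the median over its probe sets was -0.70.

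The promoters of mitosis genes are known to be switched by a CCAAT box bound by NF-Y and a cell cycle element with the core TTTGAA. RefSeq promoter entries of build GRCm38.p6 were found for 23 of the 27 tested genes, and the 250 bases before the start site were searched on both strands; a match of one motif can overlap one of another, and a gene with several entries counted if any held the match. CCAAT was present in 19 of the 23 (82.6%), against 37.5% of all 27025 genes with an entry, and TTTGAA in 9 (39.1%), against 18.3%. High shares of CCAAT were not particular to mitosis: it was in 100% of 13 cholesterol synthesis genes with an entry, 80% of 10 vascular receptors, 76.2% of 21 amino acid and ER stress genes, 71.4% of 14 phenotype regulators and 68.8% of 16 clock genes. These are matches of letters, not sites shown to be bound. The 3 promoters shown are those of Cdk1, Ccnb2 and Cdc20, described above, which hold both motifs; each is 250 bases upstream of the start site, minus strand, 5′ to 3′, with every match of either motif on either strand in capitals. They lie at chr10:69352913-69353162 for Cdk1, chr9:70421555-70421804 for Ccnb2 and chr4:118437344-118437593 for Cdc20.
Cdk1: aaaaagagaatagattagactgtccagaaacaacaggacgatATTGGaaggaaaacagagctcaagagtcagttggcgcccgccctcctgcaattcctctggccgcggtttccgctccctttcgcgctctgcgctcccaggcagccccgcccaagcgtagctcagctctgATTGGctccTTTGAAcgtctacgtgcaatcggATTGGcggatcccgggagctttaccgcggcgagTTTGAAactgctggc
Ccnb2: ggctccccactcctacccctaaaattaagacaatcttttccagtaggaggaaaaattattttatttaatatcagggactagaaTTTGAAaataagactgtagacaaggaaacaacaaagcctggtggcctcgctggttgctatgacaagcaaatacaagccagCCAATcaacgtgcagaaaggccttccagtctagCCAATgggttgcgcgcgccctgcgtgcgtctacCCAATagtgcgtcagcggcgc
Cdc20: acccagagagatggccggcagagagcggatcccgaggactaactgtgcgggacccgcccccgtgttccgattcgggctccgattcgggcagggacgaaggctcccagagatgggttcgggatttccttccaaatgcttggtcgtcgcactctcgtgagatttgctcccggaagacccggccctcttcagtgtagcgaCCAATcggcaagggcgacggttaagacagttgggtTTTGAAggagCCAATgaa

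The CArG box, to which serum response factor binds, was found by its strict consensus in 3 of 18 contractile genes with an entry (16.7%), against 1.62% of all genes. It was also in 3 of 13 skeletal and heart muscle genes (23.1%) and 2 of 13 immediate early genes (15.4%). The 3 contractile genes were Ldb3, Myl6 and Myl9, chosen for naming after their matches were seen. Myh11, Tagln and Actg2 were not searched here.

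Of 25 tested genes of DNA replication, 11 rose and none fell under all 3 scalings, with a median of 0.58. Rrm2, a subunit of ribonucleotide reductase, read 1153, 622 and 784 in cells and 218 and 197 in aorta (1.99, SE 0.26), and Ccne2, cyclin E2, rose by 1.60. Among the helicase subunits, Mcm3 and Mcm6 rose by 1.27 and 0.69, while Mcm2, Mcm4, Mcm5 and Mcm7 were not called.

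Of 17 tested cell cycle inhibitors and G1 genes, a list that also holds cyclins and kinases that drive the cycle, 9 rose and 1 fell. Cdkn2a, which encodes p16 and p19Arf, read 2503, 2452 and 2194 in cells, against 28.3 and 26.8 in aorta; its change was 6.43 (SE 0.13, adjusted p = 2.89e-05) and 5.34 on the log2(value + 32) scale. It stayed between 1601 and 2769 in the stimulated cells. Its neighbour Cdkn2b, p15, read 1159, 1093 and 1171 in cells and 203 and 278 in aorta (2.26, SE 0.16). Cdkn1a, p21, rose by 1.94 (SE 0.18). Cdkn1c, p57, an inhibitor of quiescent cells, fell by 2.34 (SE 0.39), and Cdkn1b, p27, was not called.

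Of 27 tested genes of the non-muscle cytoskeleton, 14 rose and none fell; 1 was called lower as deposited. S100a4, a calcium-binding protein of migrating cells, read 15030, 15046 and 16297 in cells, against 3408 and 3964 in aorta (2.07, SE 0.10). The non-muscle tropomyosins Tpm3 and Tpm4 rose by 1.26 and 1.22, and non-muscle myosin Myh9 by 0.80. The probe sets of Myh9 and Tpm3 disagree, ranging from -1.02 to 1.84 and from -0.99 to 1.87. Actb, beta actin, was not called: 19331, 19467 and 20504 in cells and 19056 and 24506 in aorta, with a change of -0.13 that turned to 0.91 with median centring.

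Of 20 tested genes of fibrillar collagens and their processing, 15 rose and none fell, with a median of 0.98. Plod2, a lysyl hydroxylase, read 9449, 9713 and 9671 in cells, against 587 and 1806 in aorta (3.22, SE 0.43). P4ha3, a prolyl hydroxylase subunit, read 776, 719 and 664 in cells, against 47.5 and 46.0 in aorta (3.94, SE 0.15, adjusted p = 5.95e-05). Col5a1 and Col5a2, collagen V chains, rose by 1.14 and 1.29. Col1a2 and Col3a1 were not called as deposited; Col1a2 read 21404, 20619 and 21878 in cells and 20058 and 26456 in aorta.

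Of 14 tested elastic fibre genes 7 rose and 2 fell. Eln, elastin, read 10434, 7664 and 8048 in cells, against 6295 and 8127 in aorta, and was not called (0.27, adjusted p = 0.247). In the 11 stimulated cell arrays it was between 189 and 919, so the unstimulated cultures stood apart from the other cells there. Fbln5, fibulin 5, which guides elastin assembly, read 27608, 26869 and 28723 in cells and 6782 and 9318 in aorta (1.80, SE 0.14). Emilin1 and Fbln2 rose by 2.08 and 2.04, although the probe sets of Fbln2 gave -2.91 and 2.04. Fbln1, fibulin 1, read 84.2, 104 and 114 in cells, against 1479 and 2969 in aorta (-4.39, SE 0.31), and Mfap4, a microfibril protein, read 5.51, 5.38 and 11.1 in cells and 1309 and 1506 in aorta.

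Matricellular proteins and small proteoglycans split almost evenly, with 8 of 25 tested called higher and 7 lower. Thbs1, thrombospondin 1, read 17535, 17343 and 18798 in cells, against 340 and 1084 in aorta (4.88, SE 0.45). Thbs2 rose by 2.83 and Ccn4 by 3.88, and Ccn1, a serum- and stretch-induced protein, by 1.50. On the other side, Lum, lumican, read 340, 434 and 405 in cells, against 7590 and 13344 in aorta (-4.69, SE 0.25), and Tgfbi fell by 5.62 (SE 0.29). Fn1, fibronectin, was not called. Postn, periostin, another matricellular protein, changed by -0.62 as deposited and by 0.42 with median centring.

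Of 18 metalloproteinases and inhibitors, 9 rose and 2 fell. Mmp14, the membrane-bound protease that activates Mmp2, read 9095, 7938 and 8107 in cells and 850 and 1177 in aorta (3.06, SE 0.16, adjusted p = 9.91e-05). Mmp2 rose by 1.34 and Mmp11 by 3.41. Timp4, an inhibitor, read 39.1, 23.9 and 38.0 in cells, against 1823 and 3139 in aorta (-6.18, SE 0.33), and Mmp9 fell by 4.34. In the collagen IV pair of the basement membrane, Col4a1 and Col4a2 were not called, while Col18a1 fell by 3.77 (SE 0.17) and Lamb1, a laminin chain, rose by 1.53. Among adhesion receptors, Itgb8 and Ddr1 rose by 2.56 and 1.78, and Itga7, a laminin receptor of muscle, read 98.0, 93.6 and 77.2 in cells, against 962 and 1011 in aorta (-3.47, SE 0.17).

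Growth factor genes were more often called higher (15 of 29) than lower (4 of 29). Pdgfrb, the receptor for platelet-derived growth factor on mural cells, read 12477, 12551 and 13101 in cells, against 3464 and 4975 in aorta (1.61, SE 0.16). Its ligand gene Pdgfc rose by 1.40, and Fgf7 by 2.49. Fgf1 read 100, 72.3 and 99.7 in cells and 1963 and 1270 in aorta (-4.14, SE 0.25). The insulin-like growth factor binding proteins went opposite ways: Igfbp2 rose by 3.22 (SE 0.12) and Igfbp5 fell by 3.78 (SE 0.24).

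Within the TGF-beta and BMP list 9 of 24 tested rose and 2 fell, Grem1 among the rises. Tgfb1 read 493, 493 and 472 in cells, against 153 and 122 in aorta (1.83, SE 0.16). Smad7, the feedback inhibitor of the pathway, read 3637, 9367 and 6031 in cells and 235 and 417 in aorta (4.24, SE 0.43). Tgfbr3, betaglycan, fell by 1.85, and the signalling receptors Tgfbr1 and Tgfbr2 were not called. Of the YAP and serum response targets, 8 of 15 rose, among them Ankrd1 at 2825, 2273 and 2202 in cells, against 239 and 300 in aorta (3.18, SE 0.16). Edn1, endothelin 1, rose by 3.64 (SE 0.36).

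Some genes of cartilage and bone rose. Of 17 tested 8 rose and 2 fell, with a median of 1.12, and of 0.67 on the log2(value + 32) scale. Of the 18 with a probe set, 5 were at or under the 30th percentile on both pools, Col10a1 among them. Such genes could be tested only through the cell arrays, so the filter leaned them toward a rise. Sox9, the master factor of cartilage, read 819, 810 and 726 in cells, against 53.9 and 27.0 in aorta (4.36, SE 0.30). Col10a1, the collagen of hypertrophic cartilage, read 1319, 967 and 1188 in cells, against 30.2 and 8.66 in aorta. Dlx5 rose by 4.27 and Tnfrsf11b, osteoprotegerin, by 4.64. All 4 were lower in every stimulated cell array than in any unstimulated one; Sox9 was between 79.4 and 325 there. Cytl1, a cartilage cytokine, and Sox6 had changes of -4.38 and -2.58, both called lower under all 3 scalings, and Sp7, the bone factor osterix, was not called.

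Of 22 tested chemokines and cytokines 8 rose and 6 fell. Cxcl1, which draws neutrophils, read 2481, 2839 and 2775 in cells, against 91.3 and 123 in aorta. Cxcl2, of the same function, rose by 7.16, and by 5.11 on the log2(value + 32) scale. Ccl2 read 908, 751 and 831 in cells and 70.1 and 93.6 in aorta (3.35, SE 0.18). In the 11 stimulated cell arrays Cxcl1 was between 8839 and 31121 and Ccl2 between 14500 and 22673, above each array of the cells labelled as untreated, whose source label also mentions TNF-alpha. Ptx3, a soluble pattern recognition protein, rose by 5.51. Ccl11 and Cxcl9 were lower: Ccl11 read 25.9, 34.3 and 26.4 in cells, against 1096 and 1367 in aorta, and Cxcl9 read 1.29, 1.36 and 3.00 in cells, against 573 and 751 in aorta. Complement genes fell in 8 of 14 cases and rose in 1; C1qa, a chain of C1q, which macrophages make, read 6.93, 64.2 and 8.29 in cells, against 2722 and 2453 in aorta, and Cfi, complement factor I, rose by 3.79 (SE 0.33). Of 22 interferon-induced genes 5 rose and 3 fell, near the shares over all tested genes (20.0% and 10.0%). As deposited 6 were called higher and 7 lower, against 3 higher without the third cell array and 4 lower without the first or the second. Macrophage markers were lower, as given below, while the cytokine list went both ways. C1qa, C1qb and C1qc are written in both the macrophage and the complement list. The part of macrophages in these results was not tested.

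Genes of fatty acid oxidation were lower in cells. In fatty acid oxidation and lipid handling, 16 of 21 tested fell and none rose. Acadm, an acyl-CoA dehydrogenase, read 3540, 3745 and 3955 in cells, against 16041 and 14814 in aorta (-2.04, SE 0.09, adjusted p = 7.44e-05), and Cpt2 fell by 2.19. In oxidative phosphorylation 19 of 23 were called lower as deposited, but 4 of 23 under all 3 scalings, and the list median of -0.95 turned to 0.09 with median centring. Of those 4, Cox8b and Cox7a1, forms of cytochrome oxidase found in brown fat and striated muscle, had the largest falls; Cox7a1 read 153, 136 and 113 in cells and 4566 and 2147 in aorta. Markers of fat were also lower, as given below. Lpl is written in both the fat and the fatty acid list, and Cox8b in both the fat and the oxidative phosphorylation list. The part of fat in these results was not tested.

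Glucose genes were mixed. Slc2a1, the glucose transporter GLUT1, read 4194, 4445 and 3887 in cells, against 1440 and 1317 in aorta (1.60, SE 0.10), and Pfkl rose by 1.73, while Hk2 and Pfkfb3 fell by 1.88 and 2.26. The response to amino acid shortage and unfolded protein had 14 of 22 tested higher and none lower. Slc7a11, the cystine importer, read 1173, 1767 and 1013 in cells, against 37.9 and 23.8 in aorta (5.41, SE 0.31), and Chac1 and Trib3 rose by 2.40 and 2.04. Cholesterol synthesis had 1 of 16 tested higher and none lower, ribosome biogenesis 3 of 18 higher and none lower, and immediate early genes 7 of 17 higher and 3 lower. Over all tested genes 20.0% were higher and 10.0% lower. Of the circadian clock list 6 of 18 fell and 2 rose: Per2 read 153, 158 and 131 in cells and 1049 and 1589 in aorta (-3.13, SE 0.21), Per1 fell by 2.04, and Arntl, which drives the Per genes, rose by 0.94. The time of day at which mice or cultures were sampled is not given in the sources used here.

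Hox genes, which record position along the body axis, differed by cluster. All 6 tested HoxC genes fell, with changes between -5.65 and -3.58. Hoxc8 read 16.6, 84.2 and 25.7 in cells, against 1414 and 1945 in aorta. No HoxC gene read above 84.2 in the unstimulated or 119 in the stimulated cells, and the lowest value in a pool was 134. In HoxA and HoxB, 5 of 7 and 4 of 6 tested genes rose and none fell. In HoxD 1 of 4 tested genes fell and none rose, with changes between -6.07 and -0.15. It was Hoxd10, named after its values were seen, at 3.92, 0.39 and 0.76 in cells, against 47.6 and 105.3 in aorta, and the call was lost without either pool. Hoxd10 is 1 of 6 members of the Hox and positional list at or under the 30th percentile on all 3 cell arrays. The tested genes among these 6 passed the filter only through the pools, so their direction was largely set by it. The lowest cell signal was 2.68 in HoxC and 0.39 in HoxD, against 156.6 in HoxA and 46.4 in HoxB. Hoxa5 read 2062, 2065 and 2271 in cells and 675 and 936 in aorta (1.42, SE 0.15), and Hoxa4 rose by 3.84 (SE 0.28). Hoxa9 lay at 271, 316 and 268 in cells, against 536 suprarenal and 1998 infrarenal. The cells, which come from the suprarenal segment, lay below both pools. They were therefore closer to the suprarenal pool because it was the lower, which does not speak to their segment. Hoxc6 and Hoxa10, outside the rule for named genes, were plotted with the rest of their clusters.

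**Figure D3:**
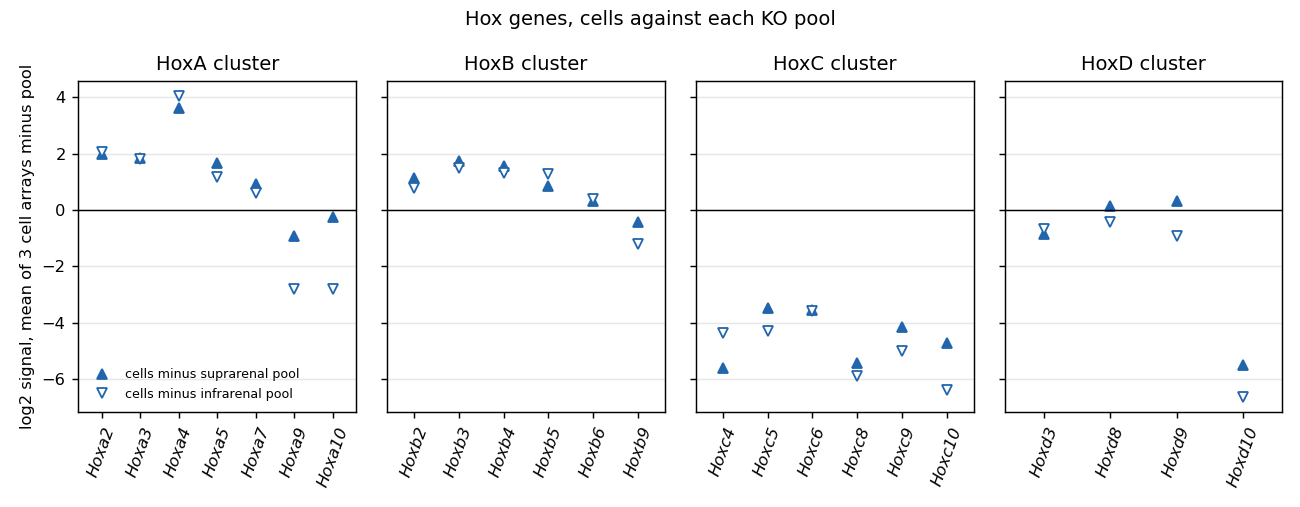
Log2 signal of 23 Hox genes, mean of the 3 unstimulated cell arrays minus the KO suprarenal pool (filled triangles) and minus the KO infrarenal pool (open triangles), by cluster. All 6 HoxC genes lie below -3 against both pools, and Hoxa2 to Hoxa7 and Hoxb2 to Hoxb6 lie above 0.

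Markers of the other cells of an aortic specimen were mostly lower in the dish. Over 18 lists, 206 genes were tested. Of these, 147 were called lower and 7 higher as deposited, and 117 lower and 5 higher under all 3 scalings. In every list but endothelium, some markers were at or under the 30th percentile on all 3 cell arrays. In skeletal and heart muscle these were 10 of the 20 with a probe set. Those of them that were tested passed the filter only through the pools. Their direction was largely set by the filter, and the totals include them. The 15 largest falls, on the log2(value + 32) scale, were led by genes of fat. Thrsp, Car3, Cox8b, Cyp2e1, Sparcl1, Cd36, Cidea, Pck1, Ucp1, Slc6a2, Retn, Cidec, Npy, Retnla and Snap25 made up these falls; most are known from brown or white fat, Sparcl1 from vascular and other stroma, and Slc6a2, Npy and Snap25 from sympathetic nerves.

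Of 18 tested fat markers 16 fell and none rose, median -6.13, and -4.29 on the log2(value + 32) scale. Ucp1, the uncoupling protein of brown fat, read 1.79, 3.30 and 1.73 in cells, against 10594 and 5125 in aorta; its change was -11.73, and -7.76 on the log2(value + 32) scale. Adipoq, adiponectin, read 91.7, 234 and 199 in cells and 20668 and 24721 in aorta (-7.12, SE 0.40). The summed signal of the list was 12769 to 13516 in cells, against 165858 and 163085 in the suprarenal and infrarenal pools, and 7 of the 18 were at or under the 30th percentile on all 3 cell arrays. Plin4, which coats lipid droplets, read 1199, 1218 and 1257 in cells, against 5271 and 5945 in aorta.

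All 23 tested macrophage markers were called lower, 20 of them under all 3 scalings, and their summed signal was 1389 to 2072 in cells, against 49189 and 34406 in the pools. On all 3 cell arrays 7 of the 24 markers with a probe set were at or under the 30th percentile. Csf1r, the receptor that macrophages depend on, read 228, 167 and 185 in cells, against 5632 and 5594 in aorta (-4.87, SE 0.15, adjusted p = 4.49e-05). Cd163 and Ptprc, the pan-leukocyte marker CD45, lay below the median signal on each cell array: Ptprc read 13.6, 24.6 and 11.3 in cells, against 4616 and 1344 in aorta. Lyz2, lysozyme, read 357, 731 and 455 in cells, against 12998 and 7916 in aorta. The class II antigen presentation genes fell in 7 of 10 cases, with H2-Aa at 76.5, 35.6 and 42.2 in cells, against 12239 and 10002 in aorta. Lymphocyte markers fell in 9 of 11 cases for T and NK cells and in 8 of 11 for B and plasma cells. Of those with a probe set, 9 of 14 and 4 of 11 were at or under the 30th percentile on all 3 cell arrays. Such markers could be tested only through the pools, so their direction was largely set by the filter.

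Lymphocyte and nerve transcripts were unequal between the pools. Igha, an immunoglobulin heavy chain, read 6.39, 8.11 and 44.6 in cells, against 5228 suprarenal and 1343 infrarenal. The summed signal of the sympathetic neuron list was 1077 to 1298 in cells, against 101814 suprarenal and 16075 infrarenal, and 12 of 15 tested members fell. Th, tyrosine hydroxylase, which makes catecholamines, read 3.72, 13.1 and 26.6 in cells and 9047 and 959 in the suprarenal and infrarenal pools. Among glial markers 6 of 10 fell; Mbp, myelin basic protein, read 8.40, 2.24 and 8.92 in cells, against 5281 and 3649 in aorta. S100b was bright in both, at 846, 622 and 586 in cells and 1369 and 897 in aorta, and was not called under all 3 scalings. Of the tested markers, 4 of 15 neuronal and 3 of 10 glial ones were at or under the 30th percentile on all 3 cell arrays. These too were tested only through the pools, so their direction was largely set by the filter.

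Some markers were brighter in 1 pool. The adrenal cortex gene Star read 37.5, 11.8 and 30.8 in cells, against 202 suprarenal and 1332 infrarenal, and Cyp11b1 read 73.8, 107 and 45.3 in cells, against 39.7 suprarenal and 1012 infrarenal. Skeletal and heart muscle markers summed to 885 to 1028 in cells, against 6697 and 4729 in the KO pools and 112837 and 32171 in the untreated WT pools. Replacing the KO pools by the WT pools moved Acta1, skeletal actin, to a change of -5.74, against -1.56 with the KO pools.

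Fibroblast markers divided. Of 18 tested adventitial markers 10 fell and 2 rose. Dpt, dermatopontin, read 120, 61.7 and 76.5 in cells, against 7695 and 12614 in aorta (-6.90, SE 0.33), and Pi16 and Clec3b fell by 5.93 and 7.67. Cd34 and Pdgfra were not called, and Mfap5 and Serpinf1 rose by 0.64 and 0.78. Pericyte markers fell in 3 of 8 cases and rose in 1: Abcc9 and Kcnj8, the subunits of the vascular ATP-sensitive potassium channel, fell by 5.33 and 3.94, Pdgfrb rose as given above, and Rgs5 was not called. Krt18, a keratin of simple epithelia that cultured mesenchymal cells also make, read 2268, 2894 and 2932 in cells, against 100 suprarenal and 579 infrarenal (3.48, SE 0.68), while Krt8 was not called at 62.5, 53.3 and 48.6 in cells and 54.7 and 437 in the pools.

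**Figure D4:**
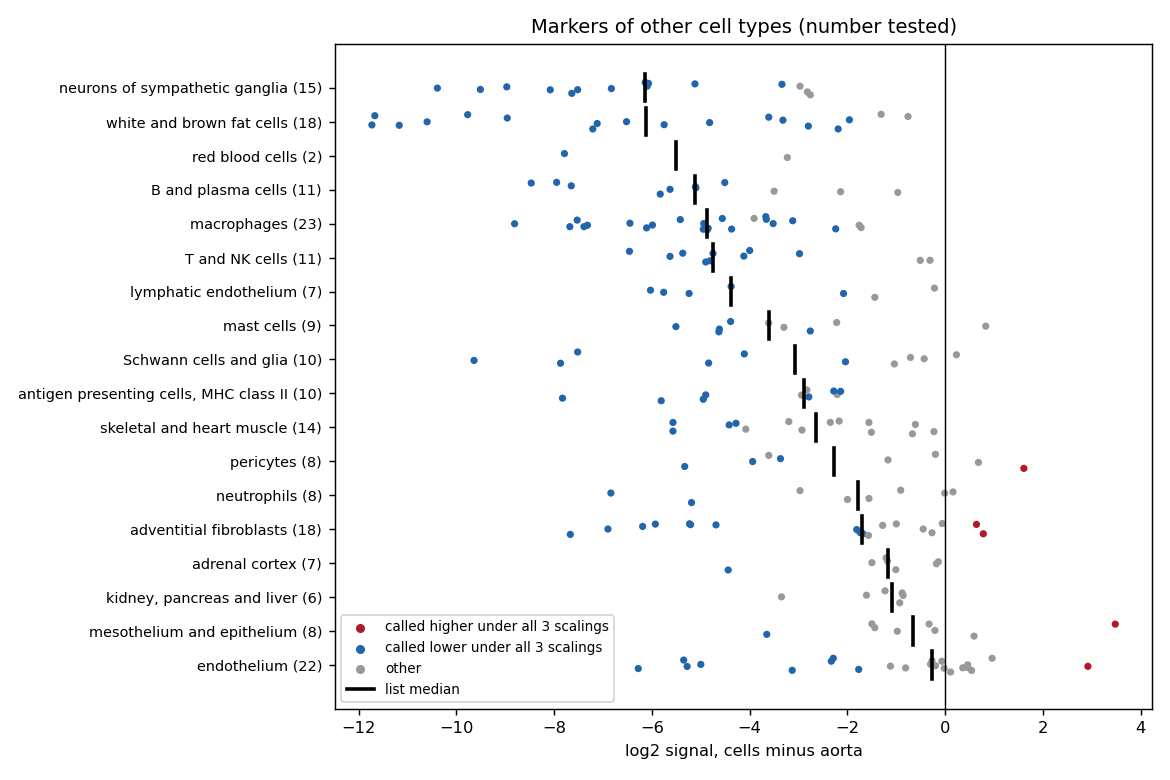
Log2 signal, cells minus KO aorta, of each tested marker in 18 lists of other cell types, with the list median as a black tick. Blue and red points were called lower and higher under all 3 scalings. Neurons and fat have medians of -6.14 and -6.13, endothelium -0.28. On the log2(value + 32) scale, not plotted, these medians are -5.12, -4.29 and -0.28.

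Many endothelial markers were not lower in the cultures. Of 22 tested 8 fell and 1 rose under all 3 scalings, and 13 were not called lower as deposited. Pecam1, the adhesion molecule CD31, read 3097, 3324 and 3231 in cells, against 1555 suprarenal and 3529 infrarenal, and its groups overlapped. Cdh5, the endothelial cadherin, read 1629, 1857 and 1914 in cells, against 676 and 1262 in aorta, above both pools; its change of 0.96 was called as deposited (adjusted p = 0.0253) and not under all 3 scalings. Emcn, endomucin, read 12108, 11809 and 14206 in cells, against 1111 and 2519 in aorta (2.92, SE 0.33, adjusted p = 0.00108). Tie1 and Vwf, von Willebrand factor, were not called; Vwf read 1085, 1352 and 1200 in cells and 1306 and 5247 in aorta.

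Other endothelial genes of the same list fell in the same cultures, although none of the 22 was at or under the 30th percentile on all 3 cell arrays. Kdr, the main receptor for vascular endothelial growth factor, read 91.0, 65.7 and 58.6 in cells, against 521 and 734 in aorta (-3.13, SE 0.27). Mmrn2, an endothelial matrix protein, and Gpihbp1, which carries lipoprotein lipase in capillaries, read at most 93.9 and 36.7 in cells, against at least 1912 and 1814 in aorta. Nos3 and Cldn5, the endothelial nitric oxide synthase and claudin, were picked out after their values were seen; Nos3 read 48.1, 51.4 and 34.9 in cells and 1090 and 1838 in aorta. The lymphatic list had 5 of 7 tested called lower as deposited; Lyve1, a hyaluronan receptor of lymphatic endothelium, read 75.5, 102 and 73.7 in cells, against 1457 and 2038 in aorta.

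The endothelial signals were present in all cultures, and the counts depend on the pool. Pecam1 was between 3458 and 5065, Cdh5 between 1928 and 2472, and Emcn between 9298 and 12273 in the 11 stimulated cell arrays. The infrarenal pool was brighter than the suprarenal pool in 21 of the 22 genes. Without the suprarenal pool 16 were called lower and 2 higher, and without the infrarenal pool 9 lower and 9 higher. The cultures labelled aortic smooth muscle cells carried Acta2, Tagln and Pdgfrb at the signals given above together with Pecam1, Cdh5 and Emcn. Whether the same cells hold both sets cannot be told apart from a mixture in RNA of whole cultures.

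**Figure D5:**
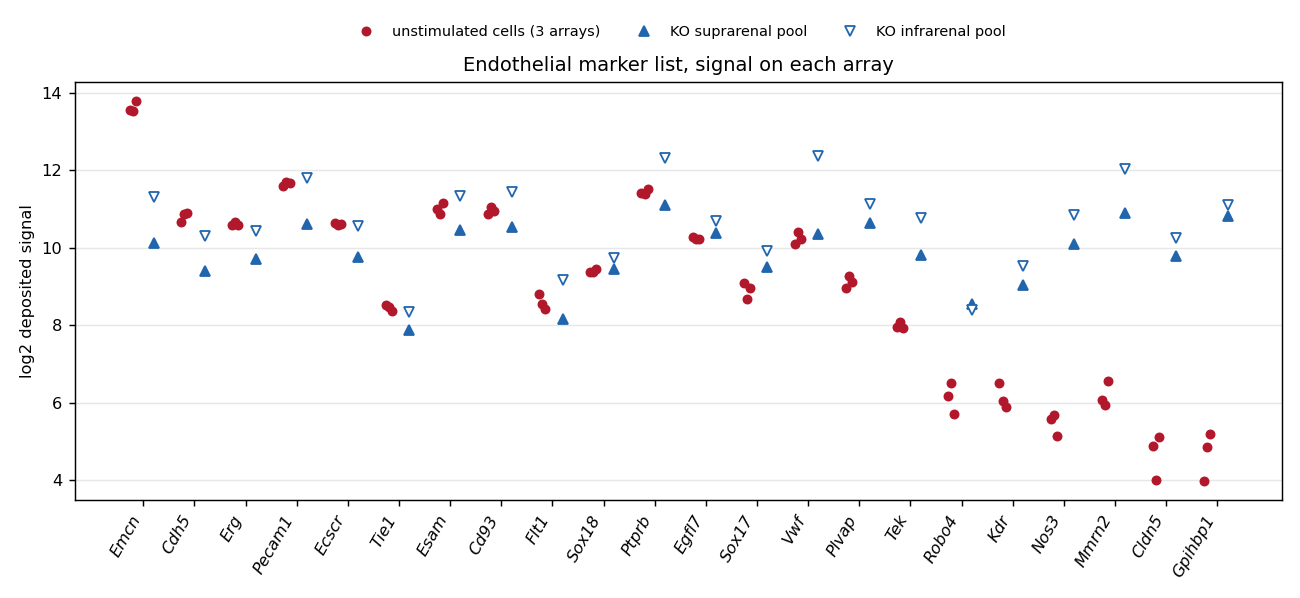
Log2 deposited signal of the 22 tested endothelial markers on the 3 unstimulated cell arrays (circles, left of each pair) and the KO suprarenal and infrarenal pools (triangles, right), ordered by change. All 3 cell arrays lie above both pools in 5 genes, below both in 11, and the groups overlap in 6.

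Myh11 was between 27.9 and 83.4 in the 11 stimulated arrays, against at least 266 in the unstimulated cells. Cnn1 was between 30.5 and 388, against at least 1022, and Npr3 between 140 and 805, against at least 3800. In each case no stimulated array reached the lowest unstimulated one. Acta2 was between 15304 and 21644 in stimulated cells, against at least 22235 in unstimulated cells. These ranges pool 3 treatments and are given without a test.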

How the data were processed

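RNA was hybridised to Affymetrix Mouse Genome 430 2.0 arrays. The values are the intensity per probe set as deposited by the authors; Affymetrix Expression Console is named per the submitters' processing notes, and the algorithm is not given in the sources used here. Each gene was represented by its brightest probe set, by the mean over all 22 arrays. Most of these are cell arrays (3 unstimulated and 11 stimulated), so the choice leans to probe sets that are bright in cells. Genes above the 30th percentile of the array on at least 2 of the 5 arrays were tested, on log2 intensity, with limma 3.58.1 in R 4.3.3 (lmFit and eBayes with a trend) and Benjamini-Hochberg adjustment. Fold changes of dim genes are also given on the log2(value + 32) scale. Alternatives were quantile normalization, median centring, other filters and offsets, the WT pools in place of the KO pools, and each array left out. The rule that a call holds under 3 scalings was chosen after seeing the data. The members and gene lists were chosen with earlier results of these data known. Named genes are Tnc, the 15 largest rises and falls, the first 6 tested members of each list, and the 2 largest rises and falls of each list; genes outside these are marked, except where a list or cluster is shown whole. In a single simulated draw over 15074 genes with 200 changed, 29% were found at a log2 change of 1 and 50% at 2, and 1.25% of calls were false. The data had 7224 calls, and the adjustment depends on how many genes change. These shares therefore need not hold for this comparison. The number of arrays limits the precision. Listed genes with no named probe set were not analysed here.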

Additional observations from a re-analysis of the deposited data

How the results depend on the processing

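Scaling moved the counts most. With median centring 8922 genes were called higher and 1616 lower, 6660 and 1391 of the tested genes were at least 2-fold higher and lower, and 1522 and 999 at least 4-fold. Quantile normalization gave 2218 genes at least 2-fold and 696 at least 4-fold higher. Called the same way under 3 scalings, 1507 were lower. With 1 array left out, 2236 to 4289 genes were called higher, the fewest without the third cell array. With median centring the change was 0.69 for Acta2, 0.07 for Actg2 and for Myl9, 0.91 for Actb, 0.88 for Atp2a2, 0.59 for Cd34, 0.92 for Col1a2, 0.72 for Col3a1, 0.76 for Pdgfra, 0.42 for Postn, 0.84 for Rgs5, 0.32 for S100b, 0.71 for Srf, 0.55 for Tagln and 0.99 for Tgfbr1, against values below 0 as deposited. With the median over a gene's probe sets in place of the brightest 1, 2726 genes were called higher, against 3395, and 3827 lower, against 3829. That median was -0.44 for Fbln2, -0.29 for Mrtfb and -0.70 for Top2a, against rises on the brightest probe set. Of 173 genes named in the text that were called, 148 kept direction and call under every alternative run, and 11 lost the call with 1 array left out: Acta2, Actg2, Cdh5, Hoxa9 and Tagln without any single cell array, Hoxa7, Hoxb2, Mrtfa and Serpinf1 without 1 or another cell array, S100b without the suprarenal pool or cell array 2 or 3, and Hoxd10 without either pool (-6.64 without the suprarenal, -5.50 without the infrarenal). The count of phenotype regulators called higher as deposited was 11, and 7 without the first or the third cell array; that of DNA replication was 11, and 7 without the first cell array; that of TGF-beta and BMP was 9, and 16 without the infrarenal pool; that of glycolysis was 8, and 3 without any single cell array; that of interferon was 6, and 3 without the third cell array. Of genes called lower, interferon had 7, and 4 without the first or second cell array; mast cells 7, and 4 without the infrarenal pool; skeletal and heart muscle 11, and 6 without the suprarenal pool or the third cell array; endothelium 9, and 16 without the suprarenal pool. The cause of these shifts was not tested. No paired analysis was possible because the pools carry no replicate number that the cultures share. With 3 arrays against 2, and 2 segments standing for the spread of aorta, small changes are not resolved, and signals near the dim end have no reliable order.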
